A study of Mus musculus with 189 samples.

Results

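Pax6 and Dlx1 are 2 of the 156 assays that passed quality control, out of 192 assayed, in single-cell expression profiles of mouse oocytes and preimplantation embryos. They were chosen by their measured course in these samples, with transcript signal before the 16-cell stage and little in separated blastomeres from that stage on. The levels across that boundary are therefore given as a description, without a test. Steps before it were tested, but on values that also took part in the choice. Both genes lie on chromosome 2. In the reference annotation (GRCm38.p6), Pax6 spans chr2:105668896-105698410 and Dlx1 spans chr2:71528113-71533981.

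The profiles were made by quantitative PCR on microfluidic chips. The study set held 11 mature eggs arrested in metaphase II (MII oocytes), 14 fertilized eggs (zygotes) and 21 samples of the 2-cell, 7 of the 3-cell, 12 of the 4-cell, 27 of the 8-cell, 26 of the 16-cell (morula) and 50 of the 32-cell (blastocyst) stage. Embryos came from superovulated F1 females (C57BL/6 crossed to DBA/2) mated to C57BL6 males and were grown in KSOMaa medium at low oxygen, and the labels name no genetic change or treatment in any group. Blastomeres, the cells of a cleaving embryo, were separated and picked one at a time or in small groups. At the 2-, 4- and 8-cell stages, 3 whole embryos each were measured beside the blastomeres. Outside the study set, 3 whole embryos each of the 16- and 32-cell stages, 1 inner cell mass (ICM) sample, 1 trophectoderm sample and 10 samples of embryonic stem cell (ESC) RNA were measured in the same way, as were 1 oocyte and 2 blastomeres of the 32-cell stage that the study left out.

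Pax6 and Dlx1 encode homeodomain transcription factors. Pax6 carries a paired domain as well and is known for its part in the eye, forebrain, spinal cord and pancreas. Dlx1 is a distal-less family member known from the ventral forebrain and its inhibitory interneurons. Both are best known from embryos long after implantation. In ESCs, genes of this kind are textbook targets of the Polycomb complexes, which keep developmental regulators silent at promoters rich in CpG dinucleotides.

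The sequences shown are the 250 bases before 2 transcription starts of Pax6 and 1 of Dlx1 on the plus strand, from RefSeq (GRCm38.p6), with every CpG in capitals, so that the CpG content of the promoters can be seen. The windows are chr2:105668646-105668895 and chr2:105682213-105682462 for Pax6 and chr2:71529195-71529444 for Dlx1. The Dlx1 window lies within the annotated span of the gene, not before it.
Pax6 upstream start: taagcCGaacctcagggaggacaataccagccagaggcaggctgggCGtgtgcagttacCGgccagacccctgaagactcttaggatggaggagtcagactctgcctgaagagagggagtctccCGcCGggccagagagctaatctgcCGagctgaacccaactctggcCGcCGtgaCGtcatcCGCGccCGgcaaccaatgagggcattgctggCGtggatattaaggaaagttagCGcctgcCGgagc
Pax6 downstream start: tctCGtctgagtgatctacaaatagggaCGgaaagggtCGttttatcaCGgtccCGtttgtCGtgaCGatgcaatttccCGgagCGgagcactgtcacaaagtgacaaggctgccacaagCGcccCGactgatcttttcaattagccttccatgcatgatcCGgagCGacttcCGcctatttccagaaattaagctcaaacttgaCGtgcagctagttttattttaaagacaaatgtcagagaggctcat
Dlx1 start: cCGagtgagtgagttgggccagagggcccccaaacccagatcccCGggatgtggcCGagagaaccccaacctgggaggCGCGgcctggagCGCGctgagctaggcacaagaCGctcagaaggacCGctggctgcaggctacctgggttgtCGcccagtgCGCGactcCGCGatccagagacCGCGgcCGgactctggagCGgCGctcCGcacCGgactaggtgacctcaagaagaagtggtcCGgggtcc
Each Pax6 window held 15 CpGs and the Dlx1 window held 22. Of 32851 windows of this length in the same reference, 27.3% held at least 15 CpGs and 14.8% at least 22. The median window held 6. The GC content was 60.8% and 47.6% in the Pax6 windows and 68.0% in the Dlx1 window. No promoter was measured in these samples, so the counts describe the sequence alone.

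Levels are on a log2 scale of PCR cycles. The raw level is 30 minus the threshold cycle (Ct), so that 0 stands for no detection, and a step of 1 is a doubling if the PCR doubles its product at each cycle. The normalized level is the raw level minus the mean raw level of 3 control genes, Hnrnpr, Ssu72 and Ube2e1. An undetected gene has no level of its own on this second scale: its value is the negative of the control mean and moves with it. The assay of Pax6 was listed by the study under a cDNA clone and that of Dlx1 under its RefSeq transcript. The primer positions are not given in the sources used here. RefSeq places an antisense gene over each: Pax6os1 shares 1435 bases with the Pax6 gene and Dlx1as 3344 bases with the Dlx1 gene, and a PCR product does not tell the strands apart.

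The samples differed in how much RNA they gave. For the 3 control genes together, the raw level averaged 17.1 ± 0.33 (SD, n = 11) over oocytes and 17.1 ± 0.47 (n = 14) over zygotes. It was 13.2 ± 0.90 (n = 18) in 2-cell, 14.8 ± 0.80 (n = 9) in 4-cell, 14.8 ± 0.75 (n = 24) in 8-cell, 14.3 ± 1.06 (n = 26) in 16-cell and 12.5 ± 1.25 (n = 50) in 32-cell blastomere samples. No pair of samples held identical values. Oocyte markers fitted the labels, with Dazl and ZP3, a zona pellucida gene, detected in all 11 oocytes. In 1 zygote ZP3 was not detected. Most replicates are separate cells, groups of cells or embryos by their labels, but their collection days are not stated there. Some samples of 3-cell embryo 2 carry the same cell numbers in their titles, and 2-cell embryo 1 gave 3 samples. These may not all be separate cells.

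Pax6 was detected in 85 of 92 samples before the 16-cell stage, and in 8 of 76 blastomere samples of the 16- and 32-cell stages. Dlx1 was detected in 36 of 92 and 2 of 76. The 92 samples pool oocytes, zygotes and whole embryos with blastomere samples, whereas the 76 hold no whole embryos. In blastomere samples of the 2- to 8-cell stages alone, Pax6 was detected in 51 of 58 and Dlx1 in 11 of 58. The course of the 2 genes before the 16-cell stage was different. Pax6 was found in every oocyte and zygote and in every 8-cell sample, where its level was highest. Dlx1 was found in most oocytes and zygotes, in 11 of 21 samples of the 2-cell stage, and then in 1 of 7, 1 of 12 and 0 of 27 samples of the 3-, 4- and 8-cell stages. The signal of Dlx1 thus ended before the 4-cell stage in most samples, earlier than the boundary by which the genes were chosen.

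**Figure D1:**
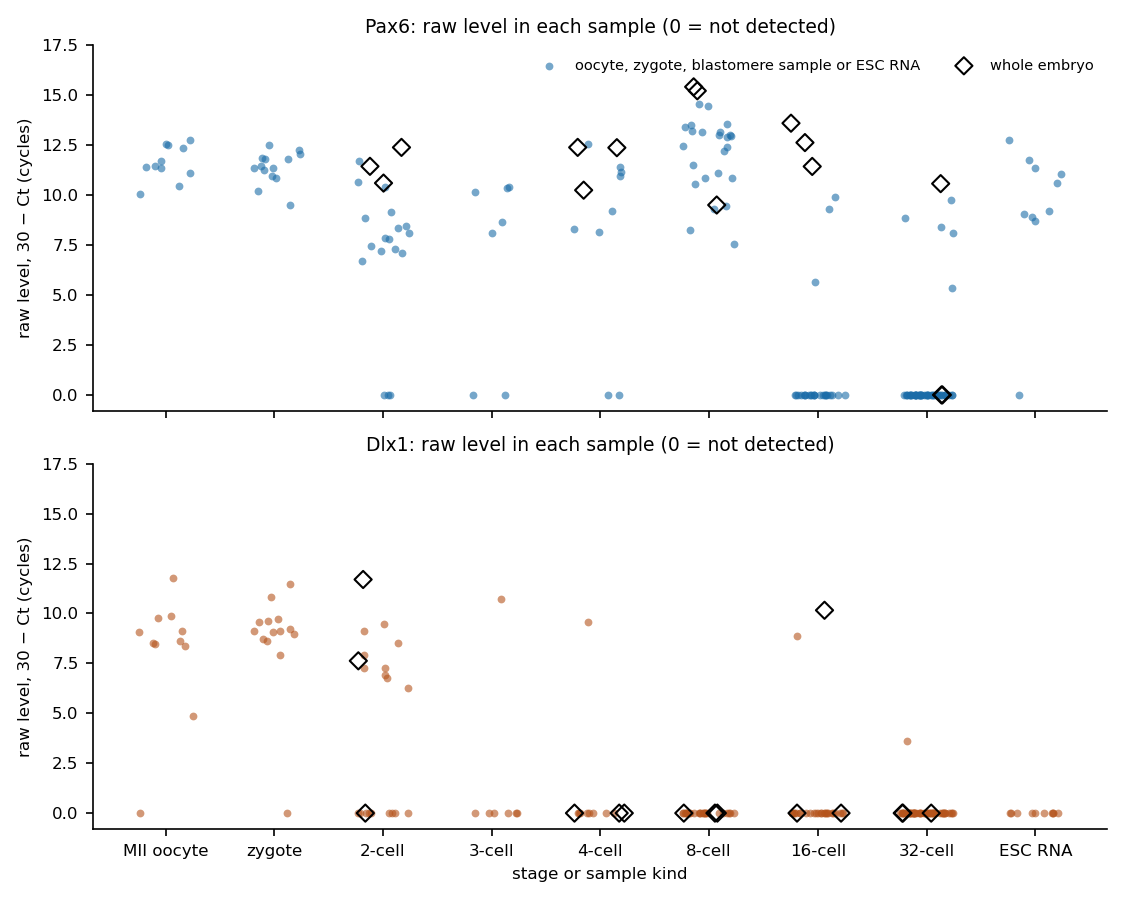
Raw level (30 minus Ct, in cycles) of Pax6 (upper panel) and Dlx1 (lower panel) in each sample by stage, with filled points for oocytes, zygotes, blastomere samples and ESC RNA and open diamonds for whole embryos. Pax6 stays between 7.57 and 15.43 in every 8-cell sample and sits at 0 in most later blastomere samples, whereas Dlx1 sits at 0 in all but 1 sample from the 4- and 8-cell stages.

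In oocytes, the raw level of Pax6 had a lowest value of 10.06, a median of 11.48 and a highest of 12.75. In zygotes these were 9.50, 11.43 and 12.51, so the 2 groups overlapped almost throughout. The normalized level was −5.46 ± 0.76 (SD, n = 11) in oocytes and −5.68 ± 0.99 (n = 14) in zygotes. The difference of −0.22 (SE 0.62) did not pass the test (limma, adjusted p = 0.890), in a comparison in which 1.92% of the 156 genes passed in either direction.

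Dlx1 was measured in 10 of 11 oocytes (90.9%, exact 95% interval 58.7 to 99.8) and 13 of 14 zygotes (92.9%, 66.1 to 99.8). Its raw level, where detected, ran from 4.85 to 11.75 in oocytes and from 7.93 to 11.47 in zygotes. In each stage 1 sample stood apart at 0, oocyte 9 and zygote 6, while its control mean of 16.7 and 16.9 lay within the range of the others. The normalized level was −9.04 ± 2.99 (n = 11) and −8.35 ± 2.55 (n = 14), and the difference of 0.68 (SE 1.04) did not pass (limma, adjusted p = 0.765). The oocyte that the study left out, with a control mean of 14.9, held Pax6 at 9.39, below the other 11, and no Dlx1. With the left-out samples the Dlx1 difference was 1.17 (adjusted p = 0.795). Intervals on shares cover counting error only and treat samples as independent, which blastomeres of the same embryo are not.

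From zygote to 2-cell stage, both genes fell per cell along with most of the panel. A blastomere of a 2-cell embryo holds only part of the content of that embryo. The control mean was 13.2 in 2-cell blastomere samples and 15.5 ± 1.33 (n = 3) in whole 2-cell embryos. The part of cell division and of RNA yield in the fall was not tested. Over embryos taken apart, the raw level of Pax6 went from 11.39 ± 0.81 (n = 14) to 7.93 ± 3.04 (n = 5), a change of −3.46 (SE 0.90, limma, adjusted p = 0.000501). That of Dlx1 went from 8.71 ± 2.66 to 5.52 ± 4.00, a change of −3.19 (SE 1.45, adjusted p = 0.0392). The median gene changed by −4.27 and 85.3% of all genes passed, with 76.9% lower. The Dlx1 call did not hold without the 11 blastomeres of unnamed 2-cell embryos, averaged as 1 unit (−2.48, adjusted p = 0.141), or without 2-cell embryo 5 (−1.81, adjusted p = 0.262). Without the 3 samples that carry no blastomere number and may hold more than 1 cell, the changes were larger, −5.47 for Pax6 (adjusted p = 3.1e-06) and −5.26 for Dlx1 (adjusted p = 0.00517).

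Relative to the control genes, neither change from zygote to 2-cell stage passed. Pax6 was at −4.80 ± 1.96 (n = 8) and Dlx1 at −8.20 ± 3.69 (n = 8) in 2-cell embryos. The differences were 0.88 (SE 0.68, adjusted p = 0.252) and 0.16 (SE 1.15, adjusted p = 0.892) in the limma fit, where 68.6% of all genes passed. All 3 whole 2-cell embryos held Pax6, at raw levels of 11.45, 12.40 and 10.61, close to the levels of zygotes. Dlx1 was at 11.70, 7.63 and 0 in the same embryos, so 1 of the 3 lacked a signal. In a whole embryo, fewer cells with a transcript and less transcript per cell cannot be told apart.

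Detection was patchy within the 2-cell stage. Of 18 blastomere samples, 8 gave both genes, 7 gave Pax6 alone, 1 gave Dlx1 alone and 2 gave neither. The 3 samples without Pax6 were among those with less control signal, with a median control mean of 12.11 against 13.7 in the 15 with Pax6, and the part of this difference in the result was not tested. For Dlx1 the medians were closer, 13.7 with and 13.5 without a signal. The 3 samples of 2-cell embryo 1 (1 of them without a blastomere number) all held Dlx1, at 7.25, 6.29 and 9.1, and the 2 blastomeres of embryo 5 held none.

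**Figure D2:**
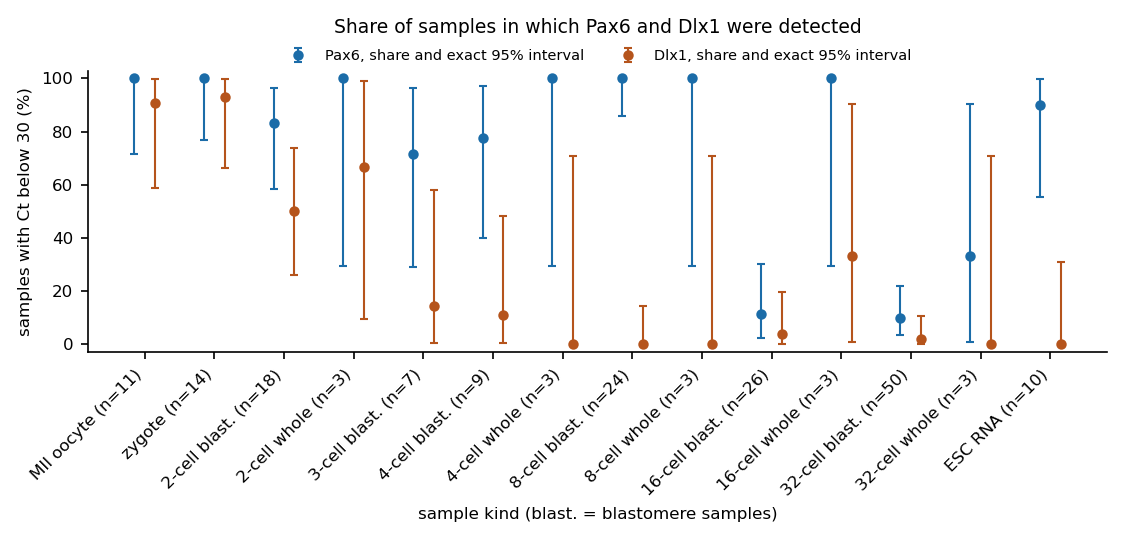
Percentage of samples with a Ct below 30 for Pax6 and Dlx1 in each kind of sample, with exact (Clopper-Pearson) 95% intervals as bars and the number of samples in the axis labels. The Dlx1 share goes from 92.9% in zygotes to 50.0% in 2-cell, 11.11% in 4-cell and 0% in 8-cell blastomeres, while the Pax6 share is 100% in 8-cell and 11.5% in 16-cell blastomeres.

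Between the 2-cell and 4-cell stages Dlx1 was lost from nearly all samples. It was detected in 1 of 9 blastomeres of the 4-cell stage, the first blastomere of embryo 6, at a raw level of 9.56. It was detected in 0 of 3 whole 4-cell embryos and 0 of 24 blastomeres of the 8-cell stage, which came from 4 embryos. Taken as independent, the 24 blastomeres allow a share of up to 14.2% (exact 95% interval). Among all 92 samples before the 16-cell stage, which pool oocytes and zygotes with later samples, the median control mean was 16.7 with and 14.6 without a Dlx1 signal. Within 4-cell blastomeres it was 14.4 in the 1 sample with a signal and 14.7 in those without. The part of the control signal in the result was not tested.

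The normalized level of Dlx1 was −14.95 ± 1.30 (n = 6) in 4-cell embryos, a difference of −6.75 (SE 1.40) from the 2-cell stage that passed the test (limma, adjusted p = 0.000395). In this comparison 32.7% of all genes passed and 25.6% were lower. Because most 4-cell values are those of an undetected gene, the size is not a fold change of Dlx1. A fall of Dlx1 at some step was implied by its choice on the stage course, so the p-value is no independent evidence. With normalized values below −10 set to −10, the difference was −2.62 (adjusted p = 0.00243). Per cell and without whole embryos, the raw level changed by −4.73 (SE 2.03, n = 5 and 3), which did not pass (adjusted p = 0.0617, with 37.8% of all genes called), and by −2.66 (adjusted p = 0.320) without the 2-cell samples lacking a blastomere number. Between the 4-cell and 8-cell stages the difference of Dlx1 did not pass (−0.72, SE 1.44, adjusted p = 0.709), and all values but 1 there were those of an undetected gene.

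The 3-cell embryos, caught between the 2 divisions, were not tested with their 3 embryos of 7 samples. Dlx1 was found in the single sample of embryo 3, at a raw level of 10.75, and in none of the 6 samples of embryos 1 and 2. Pax6 was found in that same sample at 10.15, in all 3 samples of embryo 2 at 10.42, 8.64 and 10.37, and in 1 of 3 samples of embryo 1, at 8.12. The 3-cell embryos thus held both kinds of sample, with and without Dlx1.

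Pax6 stayed near its 2-cell level in 4-cell embryos and was higher in 8-cell embryos. The normalized level was −5.14 ± 2.76 (n = 6) in 4-cell embryos, −0.34 (SE 0.83) from the 2-cell stage, which did not pass (limma, adjusted p = 0.770). Per cell the difference was 0.79 (SE 1.26, adjusted p = 0.641), and 2.80 (adjusted p = 0.0557) without the 2-cell samples lacking a blastomere number. It was −2.86 ± 1.98 (n = 7) in 8-cell embryos, a rise of 2.28 (SE 0.86) that passed (adjusted p = 0.0239), where 49.4% of all genes passed and 13.5% were higher. Per cell, the raw level rose by 3.64 (SE 1.32, n = 3 and 4, adjusted p = 0.0307, with 28.2% of all genes called and 9.62% higher).

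The size of the rise rested in large part on 1 embryo. In 4-cell embryo 6, Pax6 was at raw levels of 8.29 and 9.19 in 2 blastomeres and was not detected in the other 2, whose control means of 15.5 and 15.9 were the higher pair of the embryo. Its mean normalized level of −10.63 lay far under the other 4-cell embryos, which ran from −5.23 to −3.50. Without it the normalized rise was 1.18 (adjusted p = 0.217) and the raw rise 1.46 (adjusted p = 0.542), neither of which passed. The call was also lost without 8-cell embryo 6 (2.02, adjusted p = 0.0538 and 3.33, adjusted p = 0.0764 on the 2 scales) and without 8-cell embryo 7 (2.01, adjusted p = 0.0597 and 3.22, adjusted p = 0.0863).

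**Figure D3:**
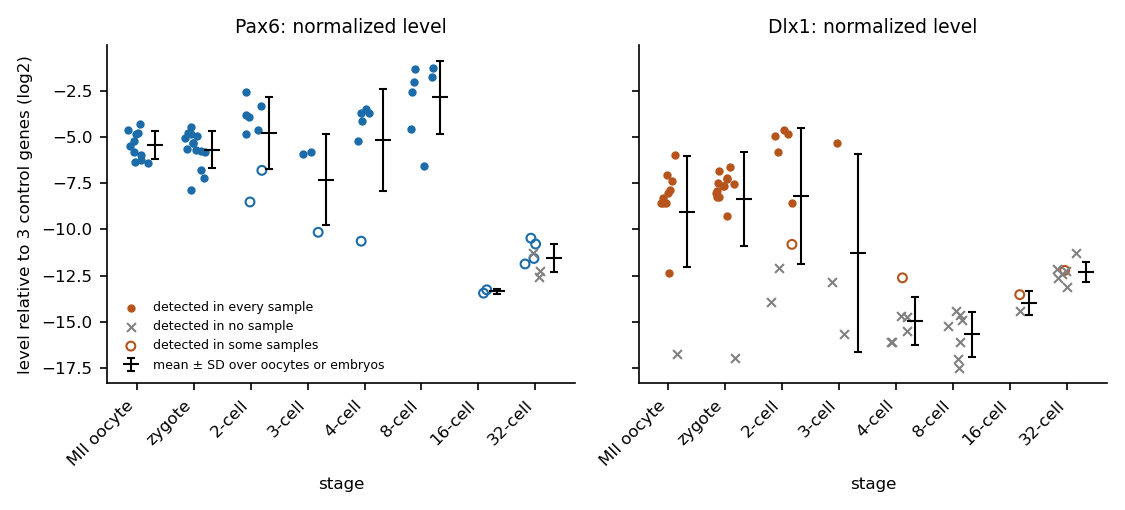
Normalized level (log2, relative to 3 control genes) of Pax6 and Dlx1 in each oocyte or embryo by stage, with filled points where every sample of the embryo gave a signal, open circles where some did and crosses where none did, and bars for mean ± SD. Pax6 is highest at the 8-cell stage (−2.86 ± 1.98, n = 7), and the crosses of Dlx1 from the 4-cell stage on follow the control genes, not Dlx1.

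Among the stage means of the normalized level, the order for Pax6 was 8-cell, 2-cell (−4.80), 4-cell (−5.14), MII oocyte (−5.46), zygote (−5.68), 3-cell (−7.30 ± 2.47, n = 3), 32-cell (−11.54 ± 0.76, n = 7) and 16-cell (−13.35 ± 0.13, n = 2). From the 8-cell to the 3-cell value, each mean lay within 1 SD of its neighbour's larger spread. The gaps between the 3-cell, the 32-cell and the 16-cell stage were wider than the SD on either side, the last of them between values of a gene that was mostly not detected. For Dlx1 the order was 2-cell, zygote, MII oocyte and 3-cell (−11.28 ± 5.33, n = 3), whose neighbours overlapped. Below these, the 32-, 16-, 4- and 8-cell means are ordered by the control genes, as Dlx1 was rarely detected.

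Sister blastomeres of 8-cell embryos all held Pax6, but at different measured levels. The raw level ran from 7.57 to 14.46 in the 8 blastomeres of embryo 4, which spread most (SD 2.44). It ran from 10.57 to 13.03 in the 8 of embryo 5, from 12.91 to 13.55 in the 5 of embryo 6 and from 13.16 to 14.55 in the 3 of embryo 7. Blastomeres of embryos 6 and 7 thus lay in the upper part of the range, and those of embryo 4 reached from its lowest value to just under its highest. The raw SD was 0.96 in embryo 5, 0.27 in embryo 6 and 0.78 in embryo 7. In 3 repeats of 200 pg of ESC RNA the raw SD of Pax6 was 0.71. The part of assay noise in the spread between sisters was not tested. The SD within embryos was 1.58 on the raw and 1.18 on the normalized scale over 24 blastomeres, against a median gene's 0.85 and 0.64. On the raw scale its spread ranked 39 among 156 genes. Within 4-cell embryos its SD was 3.81 (9 blastomeres) and within 3-cell embryos 3.39 (7 samples), and both stages held samples with no signal.

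**Figure D4:**
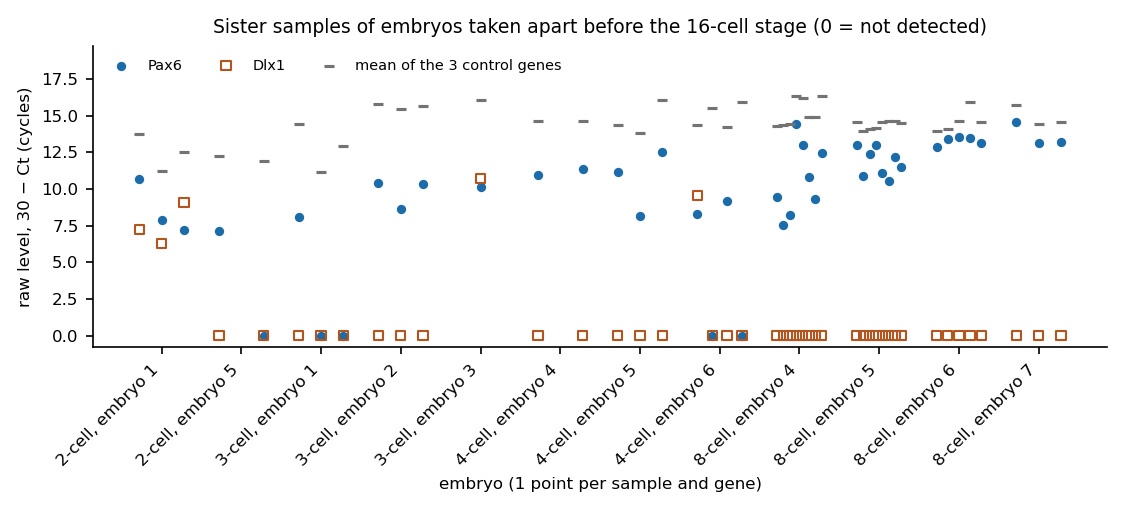
Raw level (30 minus Ct, in cycles) of Pax6 (filled points), Dlx1 (open squares) and the mean of the 3 control genes (grey bars) in each sample of 12 embryos taken apart at the 2- to 8-cell stages, with 0 for not detected. Pax6 runs from 7.57 to 14.46 in 8-cell embryo 4 and from 12.91 to 13.55 in embryo 6, and in 4-cell embryo 6 it is at 0 in the 2 blastomeres with the higher control means.

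Whole 8-cell embryos differed in Pax6 as well. Pax6 was at raw levels of 15.23, 15.43 and 9.51, or −1.76, −2.04 and −6.56 relative to the control genes. The third embryo differed by −4.66 from the mean of the other two, the third lowest difference of 156 genes, while its median gene stood 0.44 higher. Nanog was also lowest in this embryo, at −3.12 against −1.28 and −1.97. Cdx2 was at −3.62 against −3.54 and −2.53 and Pou5f1 at 3.01 against 3.55 and 3.25. Satb1 was not lowest there, at 1.32 against 1.43 and 0.92. Of all 156 genes, 32 were lower in the third embryo than in both others and 95 were higher than in both.

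At the 16-cell stage Pax6 was detected in 3 of 26 blastomere samples (11.5%, exact 95% interval 2.4 to 30.2) and at the 32-cell stage in 5 of 50 (10.0%, 3.3 to 21.8). The normalized means across the 8- to 16-cell boundary, −2.86 and −13.35, differ by −10.49, which describes mostly the loss of detection. With values below −10 set to −10 the difference was −6.69. Blastomere 6 of 16-cell embryo 4 had a raw level of 9.92, a group of 3 cells of embryo 5 had 9.33 and blastomere 8 of embryo 5 had 5.64. The first 2 of these lay within the range of 4-cell blastomeres with a signal, 8.18 to 12.55. The 5 samples of the 32-cell stage ran from 5.36 to 9.78. Single blastomeres gave 3 of the 8 signals among 52 samples (5.77%) and groups of cells 5 among 24 (20.8%), with overlapping intervals (1.2 to 15.9 and 7.1 to 42.2).

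The late samples with Pax6 lay on both sides of a score that sets ICM against trophectoderm markers. The mean level of 8 ICM genes minus that of 8 trophectoderm genes ran from −9.69 to 9.08 in the 8 samples with Pax6, of which 4 were above 0. In the 68 without Pax6 it ran from −8.71 to 10.85, and 45 were above 0. The isolated ICM sample held Pax6 at a raw level of 9.98 and the isolated trophectoderm sample at 8.18. These 2 samples carry their labels in part: the ICM genes stood at 0.95 and −2.43 and the trophectoderm genes at 0.71 and 1.61 relative to the control genes, so the ICM sample also held trophectoderm transcripts. Dlx1 was in neither.

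Whole 16-cell embryos did not look like their blastomeres. All 3 held Pax6, at raw levels of 11.44, 13.61 and 12.64 and normalized levels of −6.72, −6.24 and −7.12. Their normalized levels overlapped with those of whole 8-cell embryos only through 8-cell embryo 3, at −6.56, whereas 8-cell embryos 1 and 2 stood at −1.76 and −2.04. The mean normalized level was −3.45 ± 2.70 (SD, n = 3) in whole 8-cell and −6.69 ± 0.44 (n = 3) in whole 16-cell embryos. This difference was not tested. Of the 3 whole 32-cell embryos 1 held Pax6, at 10.58. Dlx1 was found in 1 of 3 whole 16-cell embryos, at 10.16, in 1 of 26 blastomere samples of that stage, at 8.88, and in 1 of 50 samples of the 32-cell stage, at 3.59.

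The content of an embryo can also be had by adding up its separated samples, with 2 to the power of the raw level for each and nothing for an undetected gene. For 8-cell embryos 4 and 5, of which all 8 blastomeres were measured, the sums of Pax6 were 15.29 and 15.11 on the log2 scale, close to the 2 higher whole embryos. For 16-cell embryos 4 and 5, of which the labels count 18 and 17 cells, they were 9.92 and 9.44, below all 3 whole embryos. The blastomere numbers of these 2 embryos run to 20 and 19 with gaps, so cells may be missing from the sums. The mean of the whole 16-cell embryos was 2.88 above the mean of the sums. Over the 148 genes measured in all 5 of these embryos the median was 0.72, with quartiles of 0.38 and 1.02, and Pax6 stood highest. At the 8-cell stage the same difference was −1.81 for Pax6 and −0.97 for the median gene. For the control genes it was −1.13 in 8-cell and 0.84 in 16-cell embryos. The sums assume a doubling per cycle and are lower bounds, since an undetected sample or a missing cell adds nothing. The part of this in the difference was not tested.

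**Figure D5:**
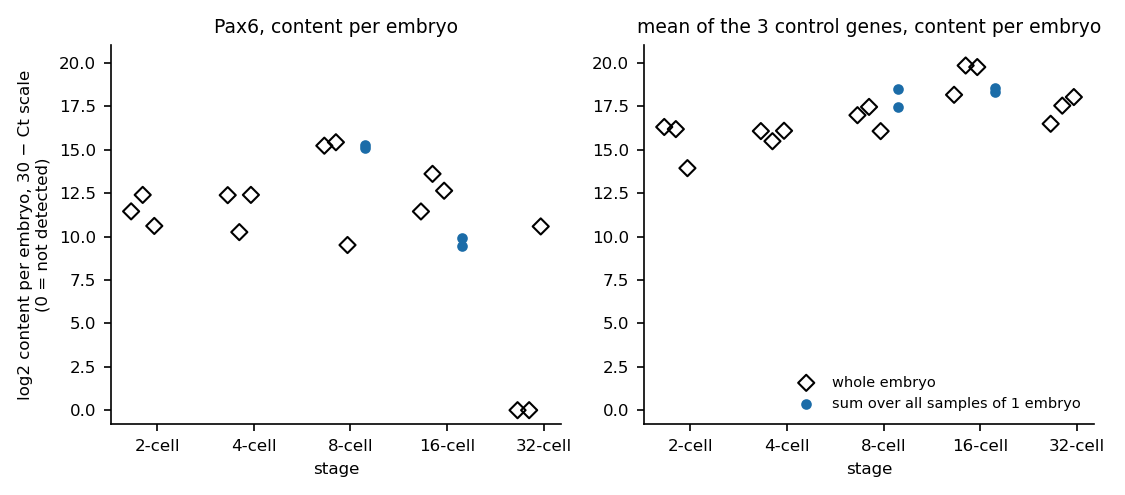
Content per embryo (log2, 30 minus Ct scale, 0 for not detected) of Pax6 (left) and of the mean of 3 control genes (right), in whole embryos (open diamonds, 3 per stage) and as the sum over all samples of 1 embryo (filled points, 2 embryos at the 8- and 16-cell stages). At the 16-cell stage the Pax6 sums of 9.92 and 9.44 lie below whole embryos at 11.44 to 13.61, while at the 8-cell stage the sums lie beside the 2 higher whole embryos.

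ESC RNA held Pax6 and no Dlx1. Pax6 was detected in 9 of 10 samples and Dlx1 in 0 of 10. Taken as independent, the 10 samples allow a Dlx1 share of up to 30.8% (exact 95% interval). In 3 repeats of 200 pg, the raw level of Pax6 was 11.76, 11.36 and 12.75, an SD of 0.71 against a median gene's 0.18, the fifth largest of the 139 genes detected in all 3. In a second series of 25, 50, 100 and 200 pg it was 9.04, 9.21, 8.70 and 11.08, while the control mean rose at each step, from 12.4 to 15.8. In another series it was 0, 8.92 and 10.59 at 32, 160 and 800 pg. The level thus did not follow the input from 25 to 100 pg in the second series, while in the other series it rose at each step. The control mean was 15.67 at 800 pg and 15.80 at 200 pg of the second series, so the stated amounts may not compare between series. The normalized level of the 9 samples with a signal ran from −5.52 to −3.37. This range overlaps with that of oocytes and zygotes, −7.87 to −4.29.

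Among 6 homeobox genes of the panel, Pax6 and Dlx1 included, most fell at the 4-cell stage relative to the control genes. From 2-cell to 4-cell, 4 of 6 fell on the normalized scale and 0 rose, where 25.6% of all genes fell and 7.05% rose, with a median of −0.79 against −0.43 over all genes. The 4 that fell were Dlx1, Cdx2, Pou5f1 and Satb1, so the count holds Dlx1 itself, which was chosen by its stage course. Cdx2, a trophectoderm factor, fell by 6.56 (SE 1.22, adjusted p = 7.7e-05). It was detected in 16.7% of 4-cell samples, so that this size, like that of Dlx1, rests mostly on values of an undetected gene and is no fold change. The pluripotency factor Pou5f1 (−1.05) and the chromatin organizer Satb1 (−0.53) fell less, and Nanog (0.05) and Pax6 (−0.34) did not pass. Per cell 0 of 6 fell, where 3.85% of all genes were lower, and Satb1 was 1.04 higher (adjusted p = 0.0192), where 34% were higher.

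From 4-cell to 8-cell most of these homeobox genes rose, Pax6 among them. On the normalized scale 4 of 6 rose and 0 fell, where 13.5% of all genes rose and 35.9% fell, with a median of 2.17 against −0.51 over all genes. The count holds Pax6 itself, which was chosen by its stage course and whose call was lost without 4-cell embryo 6. Cdx2 rose by 8.99, Nanog by 4.38 and Pou5f1 by 2.05, while Satb1 (0.01) and Dlx1 did not pass. Per cell 4 of 6 rose as well, where 9.62% of all genes did, with a median of 3.09 against −0.49 over all genes. Cdx2 was detected in 74.1% of 8-cell samples, while Dlx1 was detected in none of the 27 samples of the 8-cell stage. Of the 6, Pax6 alone was detected in 100% of 8-cell and 11.5% of 16-cell samples, which is the course it was chosen by. Cdx2, Nanog, Pou5f1 and Satb1 were detected in 100% of 16-cell samples.

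Of 16 Polycomb genes on the panel, subunits and partners of the 2 repressive complexes, 1 rose and 7 fell from 2-cell to 4-cell on the normalized scale (median −0.72 against −0.43 over all genes), where 7.05% of all genes rose and 25.6% fell. From 4-cell to 8-cell 2 rose and 8 fell (median −0.77 against −0.51), where 13.5% of all genes rose and 35.9% fell, and from zygote to 2-cell 1 rose and 9 fell (−0.82 against −0.33), where 29.5% of all genes rose and 39.1% fell. Per cell, 5 rose and 0 fell from 2-cell to 4-cell (0.53 against 1.01), where 34% of all genes rose and 3.85% fell, so the share that rose was near that of all genes.

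Genes with a stage course like those of Pax6 and Dlx1 were found by correlating the 8 stage means of the normalized level, in which all genes share the samples and the control genes. The 5 nearest to Pax6 were Jmjd5 (r = 0.78), the bromodomain gene Brdt (0.76), the Polycomb gene Scml2 (0.75), ZP3 (0.71) and the MBT-domain gene L3mbtl3 (0.69). None of these was highest at the 8-cell stage as Pax6 was: Brdt went from 2.66 at the 4-cell to −1.39 at the 8-cell stage. The 5 nearest to Dlx1 were the histone methyltransferase gene Whsc1l1 (0.94), the Polycomb genes Suz12 (0.93) and Phf19 (0.90), the kinase gene Mapk3 (0.87) and the demethylase gene Kdm4a (0.87). Phf19 went from −3.98 in oocytes to −12.70 at the 8-cell stage and stood at −8.49 at the 32-cell stage. The coefficient between Pax6 and Dlx1 themselves was 0.14. At the 4-, 8-, 16- and 32-cell stages Dlx1 was rarely detected, as was Pax6 at the 16- and 32-cell stages. Those stage means follow the control genes, so the coefficients rest in part on the control genes and not on Pax6 or Dlx1.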

How the data were processed

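Cycle thresholds of 192 assays in 189 samples were measured on BioMark chips with EvaGreen after reverse transcription and 18 cycles of specific target amplification. The authors deposited the Ct (used as a score of PCR cycles), with 30 for a gene not detected, and a table of log2 normalized values that marks 156 assays as passed. For Pax6 and Dlx1 the deposited log2 values equal 30 minus Ct relative to Gapdh, Hspa8 and Lmnb1, whereas the methods name Hnrnpr, Ssu72 and Ube2e1, which were used here. The members and gene lists were chosen with earlier results of these data known, and 1 gene of the homeobox list is not reported here.

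Samples were averaged per oocyte or embryo (58 units, 49 without whole embryos) and stages compared in one fit with limma 3.58.1 (R 4.3.3), two-sided, with Benjamini-Hochberg adjustment over 156 genes and a threshold of 0.05. The 11 blastomeres of unnamed 2-cell embryos formed 1 unit. The fit was tested on simulated normal values that had no detection floor. That test does not cover genes that are often not detected, such as Dlx1. Named genes are the members, homeobox genes, markers and, for each member, the 5 genes nearest in stage means. Alternatives were other control genes, scales, floors, units and left-out embryos. Shares carry exact Clopper-Pearson intervals, which treat samples as independent (Python 3.11.15, scipy 1.17.1). PCR gives no read depth, and the control mean stands for it.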

Additional observations from a re-analysis of the deposited data

Results flagged for a closer look

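In small groups, single samples that stood far from the rest of their group were looked for in 20 sets of values of Pax6 and Dlx1, of which 6 gave one. A rate of 1 in 20 by chance does not apply here. The sets hold the same samples on the raw and the normalized scale, and a lone signal among values of 0 stands apart by construction. Of 7 samples of 3-cell embryos, the sample of embryo 3 held Dlx1 at a raw level of 10.75 and the others held none. Of 9 blastomeres of the 4-cell stage, the first of embryo 6 held Dlx1 at a raw level of 9.56, or −4.80 relative to the control genes, and the others held none. The mean normalized level of Pax6 in 4-cell embryo 6 was −10.63, below the other 5 embryos of that stage. In ESC RNA, the sample of 32 pg had a Pax6 raw level of 0, or −10.46 relative to the control genes, and it also had the lowest control mean of the 10 samples.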

How the results depend on the processing

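A gene not detected in a sample has no level there, and the shallowest samples, by control signal, limit what can be said of Pax6 and Dlx1. The unit, the scale and a few embryos decided several values. Without normalization over all units, the zygote to 2-cell differences were −2.12 for Pax6 (adjusted p = 0.0189) and −2.84 for Dlx1 (0.0287), opposite to the normalized ones, and the Pax6 rise from 4-cell to 8-cell was 2.60 (0.0611). In the same setting Pax6 changed by 0.94 from 2-cell to 4-cell. The small zygote to 2-cell difference of Dlx1 also turned without Ube2e1 (−0.35), in the deposited normalized table (−0.29), with every sample as a unit (−0.96) and with the embryo as a random block (−0.53), and that of Pax6 with every sample as a unit (−0.17). None of these 5 passed.

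The replicate numbers of the labels did not pair the samples, with median correlations of −0.12, −0.02, −0.03 and −0.01 over the 4 steps. With the replicate number as a block and every sample as a unit, Dlx1 differed by −4.73 from 2-cell to 4-cell (adjusted p = 4.5e-05) and Pax6 by 2.90 from 4-cell to 8-cell (0.00574). The zygote to 2-cell values were −0.21 for Pax6 and −0.94 for Dlx1, and Pax6 changed by 0.0093 from 2-cell to 4-cell, and no call of either gene changed with the block.

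Leaving out 1 embryo of the 2- to 16-cell stages at a time, the Pax6 rise from 4-cell to 8-cell ranged from 1.18 to 2.90 (normalized) and from 1.46 to 4.86 (raw), and its 2-cell to 4-cell change from −0.87 to 0.75 (normalized) and from −0.43 to 2.97 (raw). The normalized zygote to 2-cell difference of Dlx1 ranged from −0.36 to 0.98. The raw change of Dlx1 ranged from −4.17 to −1.81 from zygote to 2-cell, from −6.11 to −3.74 from 2-cell to 4-cell and from −1.20 to 0 from 4-cell to 8-cell. The 2-cell to 4-cell change passed without the unnamed 2-cell embryos (adjusted p = 0.0382), 2-cell embryo 5 (0.0156) or 3-cell embryo 3 (0.0332), and with every sample as a unit (−2.80, 0.00738). Among detected samples alone, an alternative added after seeing the data for the normalized scale, Dlx1 differed by 0.99 (normalized) and 1.49 (raw) from 2-cell to 4-cell, with 1 sample at the 4-cell stage. The single-embryo alternatives of the normalized fit for 2-cell, 4-cell and 8-cell embryos were also added after seeing the data.

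Across the 8- to 16-cell boundary, the floor at −10 gave −6.69 for Pax6 and 0.19 for Dlx1, the raw scale 0.34 for Dlx1 and the deposited table −0.17 for Dlx1. In whole embryos the deposited table gave −5.39 for Pax6, and on the raw scale the difference of −0.83 became 0.09 or 0.19 without 8-cell embryo 1 or 2. Dlx1 could not be compared from 4-cell to 8-cell with genes low in both groups left out. The number of genes called went from 3 to between 0 and 6 for oocyte to zygote (1, and 0 to 4, on the raw scale), from 77 to 42 for 4-cell to 8-cell without normalization, from 59 to 90 on the raw scale for 2-cell to 4-cell without 2-cell samples lacking a blastomere number, and from 44 to 29 on the raw scale for 4-cell to 8-cell without 4-cell embryo 6. The cause of these changes was not tested.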
